A study of Mus musculus with 12 samples.

Results

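Interleukins and the tumour necrosis factor (TNF) superfamily are the ligands, receptors and decoys through which immune, stromal and parenchymal cells signal to each other. The genes described here are those whose array name begins with Il, Tnfsf or Tnfrsf followed by a digit, together with Tnf. This name rule, which uses no measured value, took 114 genes among the 34607 gene names on the array, read by 148 probes. They include 50 ligands or ligand antagonists, 59 receptors and 5 other names. Of the 114, 63 were bright enough to be tested among 20572 tested genes.

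RNA from the livers of 12 mice was hybridised to one-colour Agilent arrays, 1 array for each mouse, in 3 groups of 4. The groups were wild type (129/Sv x C57BL/6), E2f1 knockout (E2f1-/-) and E2f2 knockout (E2f2-/-). E2f1 and E2f2 encode transcription factors known for their control of cell cycle genes. All mice, controls included, received diethylnitrosamine (DEN), a liver carcinogen, at 25 mg/kg into the peritoneum at day 14 after birth. They were weaned at 1 month, then ate a high-fat diet (60% of calories from fat) for 32 weeks, and at 9 months of age they were killed after a 4-hour fast. There was thus no untreated or chow-fed group. For the E2f1 knockout samples one field, the source, names vehicle and chow, against their titles, descriptions, characteristics and the protocol, so each comparison with that group carries this conflict. The labels do not state the sex of the mice, which exons were deleted or the hour of killing, and they give the strain beside the wild type mice.

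The E2f1 probe was lower in E2f1 knockout livers (log2 difference -0.82, 1.77-fold, adjusted p = 0.0108, limma). It was still well above background on all 4 of these arrays. Its difference between the knockout groups was not called (0.66, adjusted p = 0.132, limma). The E2f2 probe was not called lower in the livers labelled E2f2 knockout (-0.26, adjusted p = 0.396), while it was lower in E2f1 knockout livers (-1.50, adjusted p = 0.00136). That probe may lie outside the deleted part and then checks nothing, so this group is called "E2f2-labelled" below and every direction drawn from it rests on the label. All 7 hepatocyte markers were tested, and their summed log2 level was 12.3 to 12.9 in wild type, 12.6 to 13.1 in E2f1 knockout livers and 12.3 to 13.0 in the E2f2-labelled group. Of these markers 2 were called higher and 0 lower in each comparison. Hnf4a, a hepatocyte transcription factor gene, was higher in both (0.68 and 0.78, adjusted p = 0.00767 and 0.00387, limma), Cps1 in E2f1 knockout (1.12, adjusted p = 0.00743) and Apob in E2f2-labelled livers (0.40, adjusted p = 0.0467). The level of a gene is its log2 processed signal minus the 75th percentile of its array. That percentile lay between 119 and 236 intensity units, and 44.7% to 54.4% of the probes were well above background on an array. A level near 0 is therefore a fairly bright probe, and levels of different probes are not comparable. In whole liver, fewer cells of a type and less RNA per cell cannot be told apart. In 3 adipocyte genes the first E2f1 knockout liver (replicate 1) was far above all 11 others. Adipoq read 1.37 there and -6.04 to -4.07 elsewhere, Plin1 0.49 and -6.28 to -3.82, and Retn 1.09 and -6.18 to -3.20. In the neutrophil genes Mpo and Camp it read 2.70 and 2.56, against -2.95 to -1.52 and -1.02 to -0.65 in the rest of its group. Wild type replicate 3 was at the edge of its group for several members, as given with each.

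Most interleukins act through paired receptor chains. IL-1 family cytokines use Toll-like adaptors and NF-kB, most other interleukins use JAK kinases and STAT factors, and TNF receptors recruit TRAF adaptors or death domain proteins. In liver, Kupffer cells and infiltrating monocytes are known sources of TNF and IL-1, and hepatocytes carry the IL-6 receptor that drives the acute phase response. Several TNF family receptors, among them the receptor for the TNF-like ligand TWEAK, are known to rise in damaged or regenerating liver.

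Both knockout groups had lower levels than wild type for Il10ra, Il10rb, Il16, Il21r, Il33, Il3ra, Tnf, Tnfrsf12a, Tnfrsf18, Tnfrsf23, Tnfsf12Tnfsf13 and Tnfsf13os, and higher levels for Il6ra, Il1rap, Il15ra and Il12rb1. For Tnf and Il21r no knockout array was well above background, and both calls of each were lost with normexp background correction. A second Il12rb1 probe was called in neither comparison. The E2f1 knockout call of Il10ra and the E2f2-labelled call of Il15ra were each lost in 14 of 22 alternatives. Losses of other calls are given with each gene. Against wild type, 16 of the 63 tested members were called lower and 5 higher in E2f1 knockout livers (adjusted p under 0.05, limma with Benjamini-Hochberg adjustment over all genes). Among all tested genes, 7.43% were called lower and 13.2% higher in that comparison. In E2f2-labelled livers 15 members were called lower and 6 higher, beside 7.59% and 14.4% of all tested genes. The median log2 difference over the tested members was -0.28 in E2f1 knockout livers and -0.24 in the E2f2-labelled group, and over all tested genes it was 0.13 and 0.18. Both member medians depended on the setting. The first was -0.09 with normexp background correction and -0.07 with no filter on dim probes. The second was -0.03 with normexp background correction and -0.12 with no filter on dim probes. Without wild type replicate 3 the second was -0.14, and without wild type replicate 4 it was -0.12. These are descriptions of the tested members, and nothing was tested for the list as a whole.

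Of these members, 12 were called lower and 4 higher in both comparisons, which share the wild type livers. Of all tested genes, 4.87% were called lower in both and 8.62% higher in both. Between the knockout groups, 1 member was called higher in E2f2-labelled than in E2f1 knockout livers and 0 lower, against 0.904% and 0.719% of all tested genes. With the slide as a block these counts were 0 and 1. At an unadjusted p under 0.05, limma gave 4 higher and 4 lower. Leaving out 1 liver at a time, 9 to 16 members were called lower in E2f1 knockout. The lowest count, 9, came without E2f1 knockout replicate 3 or replicate 4, and 10 came without wild type replicate 2. Without E2f1 knockout replicate 1, 14 were called lower and 5 higher, and 0 were called between the knockout groups. For E2f2-labelled livers these counts ran from 11 to 18. Each of the 4 slides held 1 array of each group, with each group in its own array position, and the effects of position and of group cannot be told apart. Within slides the median difference over the tested members ran from -0.36 to -0.10 in E2f1 knockout livers and from -0.44 to 0.14 in the E2f2-labelled group, the positive value being on slide 1. Normexp background correction, which adds an offset, moved 7 of the 21 called differences in E2f1 knockout and 11 of the 21 in E2f2-labelled livers by over 1.5 times, all toward 0, and 16 and 15 of the 21 stayed called.

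**Figure D1:**
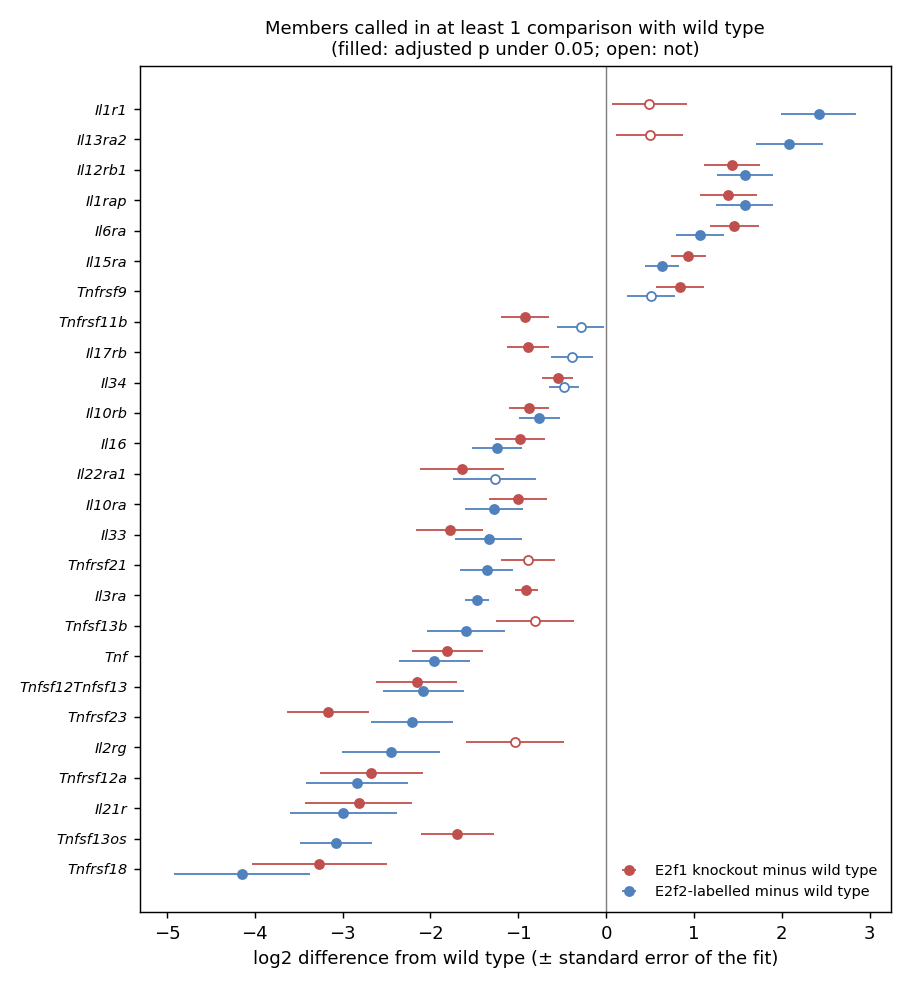
Log2 difference from wild type (x axis, ± standard error of the fit) for the 26 members called in at least 1 comparison (y axis), E2f1 knockout in red and E2f2-labelled in blue, filled where the adjusted p was under 0.05. Tnfrsf18 has the lowest value, -4.15 in E2f2-labelled livers, and Il1r1 the highest, 2.42.

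Among the TNF family ligands, Tnf itself, the founding ligand, was dim. Its level was -3.87, -2.61, -1.62 and -2.95 in the 4 wild type livers. It was -3.91, -4.52, -5.06 and -4.80 in E2f1 knockout livers and -4.22, -4.84, -4.84 and -4.97 in the E2f2-labelled group. The wild type livers were all above both knockout groups, replicate 1 only just, and wild type replicate 3 was the highest. The probe was well above background on 3 of 4 wild type arrays and on 0 of 4 in each knockout group, so the knockouts have only a bound there. Tnf was at least 1.95-fold lower in E2f1 knockout and at least 2.25-fold lower in E2f2-labelled livers. The adjusted p of 0.00971 and 0.00653 (limma) belong to the signals as measured, below background in the knockouts, and not to this bound. For this bound each knockout array counts at the higher of its own probe signal and the lowest signal well above background on that array. The bound is approximate, since the background limit differs between probes. E2f1 knockout replicate 1 read -3.91, above that lowest signal on its array (-4.16), yet was not well above background. The wild type mean takes all 4 arrays as measured. With normexp the differences shrank to -0.19 and -0.13 and both calls were lost (adjusted p = 0.497 and 0.613).

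Tnfsf10, which encodes the death ligand TRAIL, stood at -0.87 in E2f1 knockout (adjusted p = 0.066) and -0.12 in E2f2-labelled livers (adjusted p = 0.819). Tnfsf13b, the B cell survival factor BAFF, was lower in E2f2-labelled livers (-1.60, adjusted p = 0.0245) and -0.81 in E2f1 knockout (adjusted p = 0.23). Its probe was above background on 1 of 4 arrays in each knockout group. The call was lost with normexp (-0.14, adjusted p = 0.552) and without wild type replicate 1 or 2 or E2f2-labelled replicate 3 or 4 (adjusted p = 0.0516, 0.0518, 0.0669 and 0.0633). Tnfsf12, the TWEAK ligand, was bright, with means of 1.66 ± 0.39 in wild type, 1.60 ± 0.45 in E2f1 knockout livers and 1.86 ± 0.29 in the E2f2-labelled group (SD, n = 4). Its 2 probes gave differences from wild type between -0.13 and 0.27, and neither was called.

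Tnfrsf12a, which encodes the TWEAK receptor, had one of the largest falls. The wild type livers read 5.44, 4.80, 1.89 and 3.18. The E2f1 knockout livers read 0.95, 1.12, 1.39 and 1.16, and the E2f2-labelled livers 1.03, 0.78, 1.30 and 0.85. All 8 knockout livers lay within a narrow band below every wild type liver, and wild type replicate 3 was the nearest to them. The fall was 6.38-fold in E2f1 knockout (log2 -2.67 ± 0.58 SE, adjusted p = 0.0088) and 7.14-fold in E2f2-labelled livers (log2 -2.84 ± 0.58 SE, adjusted p = 0.00653). The difference between the receptor and its ligand was not tested.

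Promoter sequence is shown for 4 members whose levels moved in both groups, Tnf and Tnfrsf12a among the lower and Il6ra and Il1rap among the higher. Each run is the 250 bases before the RefSeq start in GRCm38.p6, 5′ to 3′ on the gene's strand. Capitals mark matches to a loose form of the NF-kB site (GGG, then 5 of any base, then CC) on either strand, and overlapping matches run together. The windows are Tnf on the minus strand at chr17:35202008-35202257, Tnfrsf12a on the minus strand at chr17:23677450-23677699, Il6ra on the minus strand at chr3:89913197-89913446 and Il1rap on the plus strand at chr16:26581455-26581704.
Tnf: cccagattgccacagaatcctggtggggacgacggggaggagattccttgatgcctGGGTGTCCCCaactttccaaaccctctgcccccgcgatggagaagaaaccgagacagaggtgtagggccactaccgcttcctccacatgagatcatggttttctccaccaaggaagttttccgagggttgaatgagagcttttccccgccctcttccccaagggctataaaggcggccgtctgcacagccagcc
Tnfrsf12a: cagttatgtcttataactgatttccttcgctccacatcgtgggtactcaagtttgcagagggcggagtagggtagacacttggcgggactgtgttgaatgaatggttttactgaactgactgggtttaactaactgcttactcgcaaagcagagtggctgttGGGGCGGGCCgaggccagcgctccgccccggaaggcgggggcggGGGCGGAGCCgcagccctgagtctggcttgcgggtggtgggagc
Il6ra: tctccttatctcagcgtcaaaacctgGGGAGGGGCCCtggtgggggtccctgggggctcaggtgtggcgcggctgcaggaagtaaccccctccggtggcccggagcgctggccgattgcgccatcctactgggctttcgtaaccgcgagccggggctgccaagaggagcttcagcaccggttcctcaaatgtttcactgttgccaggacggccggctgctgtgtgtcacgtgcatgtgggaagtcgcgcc
Il1rap: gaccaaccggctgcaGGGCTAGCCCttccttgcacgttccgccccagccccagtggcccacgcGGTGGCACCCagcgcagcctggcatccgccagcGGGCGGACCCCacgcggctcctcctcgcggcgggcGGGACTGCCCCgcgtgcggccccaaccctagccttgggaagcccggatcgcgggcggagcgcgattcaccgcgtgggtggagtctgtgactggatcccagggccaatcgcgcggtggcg
The Tnf window holds 1 match, Tnfrsf12a 2, Il6ra 2 and Il1rap 6. The motif is common: 45.8% of 32851 RefSeq promoter windows of this length hold it, and 44.0% of the 109 windows of members do, which cover 90 member genes. AP-1 (TGANTCA, either strand) was found in 6.75% of all windows and in 18 of the 109 member windows (16.5%). The E2F letters TTTCGCGC and TTTGGCGC were found in 0.256% and 0.417% of all windows and in 0 of the 109. A match is a description of letters, and several windows belong to the same gene.

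Tnfrsf18, which encodes the lymphocyte costimulatory receptor GITR, had the widest range over wild type livers of the members called. It read 1.73, 2.33, -2.35 and 0.68 in wild type livers. It read -2.34, -3.42, -2.62 and -2.29 in E2f1 knockout livers and -3.31, -4.05, -3.22 and -3.62 in the E2f2-labelled group. Wild type replicate 3 lay within the range of the E2f1 knockout livers, and the other 3 wild type livers lay far above. Replicate 2 of each knockout group read below the lowest signal well above background on its array (-3.02 in E2f1 knockout and -3.57 in E2f2-labelled). The size of both differences thus rests partly on signals at background. The differences were -3.26 ± 0.77 SE (adjusted p = 0.0128) and -4.15 ± 0.77 SE (adjusted p = 0.00434). Without wild type replicate 3 they were -4.25 and -5.13, and with normexp -1.96 and -2.08, both called.

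Tnfrsf23, a decoy receptor for TRAIL, read 0.15, 0.32, -1.96 and -1.15 in wild type livers. The E2f1 knockout livers lay between -4.75 and -3.39 and the E2f2-labelled livers between -3.19 and -2.46. No knockout liver reached the wild type range, and 1 of the 4 E2f1 knockout arrays was above background. The differences were -3.16 (adjusted p = 0.00166) and -2.21 (adjusted p = 0.00729). With normexp they were -1.10 and -0.87, both called (adjusted p = 0.00626 and 0.0206). The neighbouring paralogue Tnfrsf22, named after its values were seen, has closely related sequence, so signal on either gene's probes is uncertain. The brighter Tnfrsf22 probe was at -0.57 and -0.23, neither called. Its dimmer probe was above background in 3 of 4 wild type livers and 0 of 4 in each knockout group, so the knockouts have only a bound there and no difference is given.

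A stretch of chromosome 11 carries Tnfsf12, the read-through transcript Tnfsf12Tnfsf13 and, on the opposite strand, Tnfsf13os. Probe positions (mm9, from the files) are 69500342 to 69500401 for Tnfsf12, 69496733 to 69496792 for Tnfsf12Tnfsf13 and 69504584 to 69504643 for Tnfsf13os. The read-through shares exons with its parent genes, so its probe may report either. Tnfsf12Tnfsf13 read 4.23, 3.53, 1.36 and 3.01 in wild type, 1.01, 1.00, 0.76 and 0.75 in the E2f1 knockouts and 1.31, 1.10, 0.92 and 0.48 in the E2f2-labelled group. All knockout livers were below the wild type ones, with differences of -2.15 (adjusted p = 0.00823) and -2.08 (adjusted p = 0.009). Its second probe gave -1.38 (adjusted p = 0.0389) and -1.19 (adjusted p = 0.0636).

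Tnfsf13os read 2.00, 1.43, -0.21 and 1.20 in wild type livers. It read -1.13, -0.41, -0.80 and -0.02 in E2f1 knockout livers and -1.92, -2.18, -2.38 and -1.41 in the E2f2-labelled group. The E2f2-labelled livers were the lowest, below every E2f1 knockout liver. The differences from wild type were -1.69 (adjusted p = 0.0146) and -3.08 (adjusted p = 0.000707), and that between the knockout groups was -1.38 (adjusted p = 0.156). Without wild type replicate 3, the adjusted p between the knockout groups was 0.0315. With normexp the E2f2-labelled difference was -1.88 (adjusted p = 0.00147).

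Other TNF receptors moved in 1 comparison or not at all. Tnfrsf21, a death domain receptor, was lower in E2f2-labelled livers (-1.36, adjusted p = 0.00942) and stood at -0.89 in E2f1 knockout (adjusted p = 0.0574, 0.00582 without wild type replicate 3 and 0.0274 with the slide as a block). With normexp the E2f2-labelled call was lost (-0.36, adjusted p = 0.0631). Tnfrsf11b, the soluble RANKL decoy osteoprotegerin, was lower in E2f1 knockout livers (-0.92, adjusted p = 0.0322) and at -0.29 in E2f2-labelled livers (adjusted p = 0.47). That call was lost on leaving out wild type replicate 2, 3 or 4 or E2f1 replicate 3 or 4 (adjusted p up to 0.0891) with normexp (-0.54, adjusted p = 0.0558) and with no filter (0.0692).

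The 2 receptors of TNF itself were not called without a block. Tnfrsf1a, which signals TNF in hepatocytes, was bright and had means of 4.27 ± 0.25, 3.96 ± 0.16 and 4.34 ± 0.30 in wild type, E2f1 knockout and E2f2-labelled livers (SD, n = 4). Tnfrsf1b, the leukocyte-enriched receptor, had means of -0.43 ± 0.34, -0.68 ± 0.34 and -1.06 ± 0.46, with adjusted p = 0.541 and 0.0967. With the slide as a block the second was called (-0.64, adjusted p = 0.0343). Tnfrsf19 stood at 0.41 (adjusted p = 0.375) and 0.11 (adjusted p = 0.822). Tnfrsf9, the T cell costimulatory receptor 4-1BB, was the 1 TNF receptor called higher by its brightest tested probe (0.84 in E2f1 knockout, adjusted p = 0.0448). It is named after its values were seen. This call was lost in 15 of 22 alternatives, 9 of them leaving out 1 liver, with adjusted p up to 0.163 (0.56, with array weights).

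**Figure D2:**
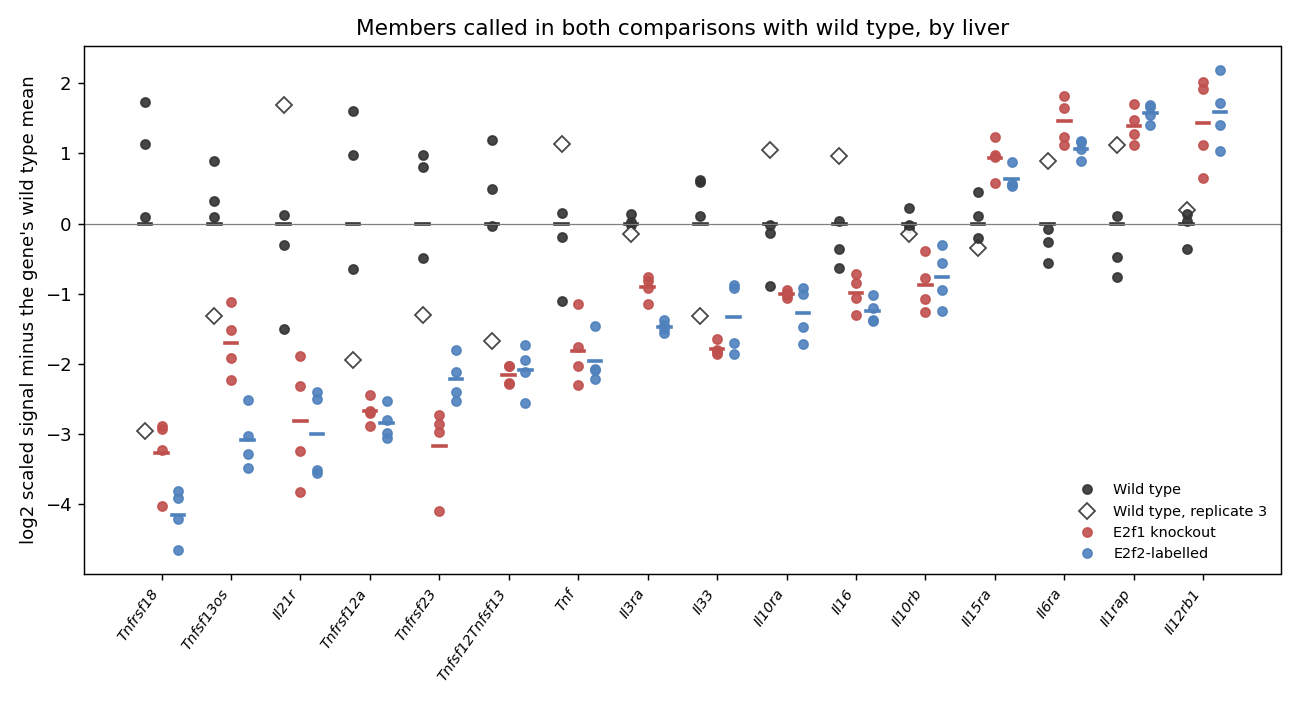
Level of each of the 16 members called in both comparisons with wild type, as the log2 scaled signal minus the gene's wild type mean (y axis), for each of the 12 livers, with bars at the group means. Open diamonds mark wild type replicate 3, which lies toward the knockout livers for Tnfrsf12a and Tnfrsf18 and away from them for Il21r and Tnf.

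Most interleukin ligands could not be measured. Of the 51 members not tested, 37 had no probe well above background on any array, and 14 had one on at least 1 array. Il1a, Il7, Il10 and Il15 and the ST2 receptor gene Il1rl1 were among the 37. So were the T helper cytokines Il2, Il4, Il5, Il13 and Il17a, which are named here after detection was seen. Il6, the acute phase cytokine, was above background on 1, 2 and 3 of 4 arrays in wild type, E2f1 knockout and E2f2-labelled livers, and its differences were 0.16 and 0.68 (adjusted p = 0.897 and 0.465).

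Il33, an alarmin of the IL-1 family, was called lower in both comparisons. Wild type livers read -0.18, -0.67, -2.09 and -0.15. E2f1 knockout livers read -2.63, -2.60, -2.56 and -2.41, and E2f2-labelled livers -1.64, -1.69, -2.63 and -2.47. Wild type replicate 3 lay among the E2f2-labelled livers. The difference was -1.78 ± 0.38 SE in E2f1 knockout (3.44-fold lower, adjusted p = 0.00839). In E2f2-labelled livers the difference was -1.34 (adjusted p = 0.0279). The latter call was lost without wild type replicate 1, 2 or 4 or E2f2-labelled replicate 3 or 4 (adjusted p = 0.0754, 0.0682, 0.0707, 0.0788 and 0.0743) and with no filter or the 2 groups alone (0.0566 and 0.069). Without wild type replicate 3 it was -1.77 (adjusted p = 0.000714). With normexp the differences were -0.89 and -0.65, both called.

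Il1b, which needs inflammasome cleavage, read 0.27, 1.87, 2.98 and 0.83 in wild type livers. Its mean was 0.30 ± 0.32 in E2f1 knockout livers and 0.30 ± 0.77 in the E2f2-labelled group (SD, n = 4). The ranges overlapped and neither difference of -1.19 passed (adjusted p = 0.13 and 0.123). Without wild type replicate 1, the lowest wild type liver, both did (-1.60 and -1.59, adjusted p = 0.0488 and 0.049). No other alternative gave a call for Il1b. Its differences shrank to as little as -0.70 and -0.69, and the adjusted p reached 0.288 and 0.292. Il1rn, the natural IL-1 receptor antagonist, was at -1.47 and -1.38 (adjusted p = 0.2 and 0.215), and at -2.14 (adjusted p = 0.0342) in E2f2-labelled livers without their replicate 1. No other alternative gave a call for Il1rn, and its differences shrank to as little as -0.41 and -0.20. Il18 was at -0.01 and -0.24 and its binding protein gene Il18bp at -0.12 and -0.25, none of them called.

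Il16, which encodes a CD4-binding chemoattractant, read -0.35, 0.31, 1.24 and -0.09 in wild type livers. It was lower in E2f1 knockout (-0.98, adjusted p = 0.0308) and at -1.24 in E2f2-labelled livers (adjusted p = 0.0107), where the highest liver read -0.73. With normexp the second was -0.78 (adjusted p = 0.0291). The E2f1 knockout call was lost on leaving out wild type replicate 2 or E2f1 replicate 1, 3 or 4 (adjusted p = 0.0732, 0.0609, 0.089 and 0.0555) and with normexp, no filter on dim probes or the 2 groups alone (0.0564, 0.0657 and 0.0724). Il34, a ligand of the CSF-1 receptor, was called in E2f1 knockout (-0.55, adjusted p = 0.0436) but lost in 14 of 22 alternatives, 10 of them leaving out 1 liver, with adjusted p up to 0.107. It was at -0.48 in E2f2-labelled livers (adjusted p = 0.0689).

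Among the interleukin receptors that were lower, Il21r, a lymphocyte receptor that signals with the common gamma chain, read -3.51, -1.89, -0.32 and -2.32 in wild type livers. It was above background on all 4 of these arrays and on 0 of 4 in each knockout group. By the same approximate bound as for Tnf, Il21r was at least 3.43-fold lower in E2f1 knockout and at least 3.80-fold lower in E2f2-labelled livers. The adjusted p of 0.00842 and 0.00623 (limma) belong to the signals as measured, below background in the knockouts, and not to this bound. With normexp the differences were -0.55 and -0.49 and neither was called (adjusted p = 0.173 and 0.199).

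The common gamma chain gene Il2rg was lower in E2f2-labelled livers (-2.45, adjusted p = 0.0101), where it was above background on 1 of 4 arrays. In E2f1 knockout livers it was at -1.04 (adjusted p = 0.218). Its E2f2-labelled livers read -2.25, -5.55, -3.95 and -4.88 against -2.34, -1.70, -0.95 and -1.86 in wild type, so 1 liver of the group overlapped with wild type. The call was lost with normexp (-0.40, adjusted p = 0.11).

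Il10ra, the IL-10 receptor chain of leukocytes, read 0.11, 0.98, 2.05 and 0.87 in wild type livers. The E2f1 knockout livers read -0.01, 0.05, -0.06 and 0.02, and the E2f2-labelled ones 0.09, 0.01, -0.71 and -0.46. All knockout livers were below all wild type livers, with wild type replicate 1 very near them. The differences were -1.003 (adjusted p = 0.0489) and -1.27 (adjusted p = 0.0176). The first was lost in 14 of 22 alternatives, 11 of them leaving out 1 liver (adjusted p up to 0.105, -0.65 without wild type replicate 3, and adjusted p = 0.0698 with the slide as a block). The second was lost without E2f2-labelled replicate 3 (adjusted p = 0.0532) and with those 2 groups alone (0.0507).

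Il10rb, the second chain, shared by several IL-10 family cytokines, had means of 0.57 ± 0.16, -0.30 ± 0.38 and -0.19 ± 0.41 (SD, n = 4). The falls were -0.88 (adjusted p = 0.0198) and -0.76 (adjusted p = 0.0347). The first was lost on leaving out wild type replicate 2 or E2f1 replicate 3 or 4 (adjusted p up to 0.0619). The second was lost without wild type replicate 1, 2 or 4 or E2f2-labelled replicate 3 or 4 (adjusted p up to 0.0976) and with no filter on dim probes (0.076).

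Il3ra, the alpha chain of the IL-3 receptor, had the smallest adjusted p among the members. It read 3.54, 3.39, 3.25 and 3.44 in wild type, 2.59, 2.65, 2.26 and 2.50 in the E2f1 knockouts and 2.04, 1.85, 1.96 and 1.90 in the E2f2-labelled group. The 3 groups did not overlap and were ordered wild type, E2f1 knockout, E2f2-labelled. The falls were 1.88-fold (log2 -0.91 ± 0.13 SE, adjusted p = 0.00154) and 2.77-fold (log2 -1.47 ± 0.13 SE, adjusted p = 4.17e-05). The difference between the knockout groups was -0.56 (adjusted p = 0.0605), 0.0412 without E2f1 knockout replicate 3 and 0.0449 with the slide as a block. Its alternatives against wild type kept both calls, with adjusted p up to 0.0101 and 0.000551.

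Il22ra1, the IL-22 receptor chain of epithelial cells, was lower in E2f1 knockout livers by its brighter probe (-1.64, adjusted p = 0.0304) and at -1.27 in E2f2-labelled livers (adjusted p = 0.0761). A second probe gave -0.05 and -0.02, so the probes disagreed. The call was lost in 9 of 21 alternatives, 6 of them leaving out 1 liver, with adjusted p up to 0.103, and shrank to -0.38 with normexp and -0.84 with the mean of the probes. Il17rb, the IL-25 receptor chain, was lower in E2f1 knockout (-0.89, adjusted p = 0.0219) and at -0.39 in E2f2-labelled livers (adjusted p = 0.267). The first was lost on leaving out wild type replicate 1 or 2 or E2f1 replicate 3 or 4 (adjusted p up to 0.0711) and with no filter or the 2 groups alone (0.0508 and 0.0573), and the second passed without wild type replicate 3 (-0.61, adjusted p = 0.0492). The difference between the knockout groups was not called for either gene (adjusted p = 0.871 and 0.464).

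Among the interleukin receptors that were higher, Il6ra, the hepatocyte IL-6 receptor, read 4.12, 4.42, 5.58 and 4.60 in wild type livers. It read 5.92, 5.81, 6.50 and 6.33 in E2f1 knockout livers and 5.57, 5.86, 5.74 and 5.84 in the E2f2-labelled group. Wild type replicate 3 was the highest wild type liver and just above the lowest E2f2-labelled one. Il6ra rose 2.75-fold in E2f1 knockout (log2 1.46 ± 0.28 SE, adjusted p = 0.00474) and 2.10-fold in E2f2-labelled livers (log2 1.07, adjusted p = 0.0174). The second call was lost with quantile normalization (0.81, adjusted p = 0.0591), with the series matrix (0.81, adjusted p = 0.061) and without wild type replicate 2 (0.99, adjusted p = 0.0538). Its signalling partner Il6st was at -0.14 and 0.01 (adjusted p = 0.529 and 0.975).

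Il1rap, the shared accessory chain of IL-1 family receptors, read 2.09, 2.37, 3.96 and 2.94 in wild type livers. It lay between 3.96 and 4.54 in E2f1 knockout livers and between 4.25 and 4.54 in the E2f2-labelled group. Wild type replicate 3 reached the lowest E2f1 knockout liver. The rises were 1.39 (adjusted p = 0.012) and 1.58 (adjusted p = 0.00661), and a second probe gave 1.05 (adjusted p = 0.00353) and 1.56 (adjusted p = 0.000336). No alternative lost either call of the brighter probe.

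Il1r1, the signalling IL-1 receptor, was the 1 member called between the knockout groups, with the brightest tested probe standing for each gene. It read 0.89, 1.43, 1.07 and 1.49 in wild type, 1.55, 1.39, 2.40 and 1.50 in the E2f1 knockouts and 4.50, 4.36, 2.25 and 3.44 in the E2f2-labelled group. The E2f2-labelled livers were all above wild type, and their replicate 3 was below the highest E2f1 knockout liver, also a replicate 3. The rise over wild type was 5.36-fold (log2 2.42 ± 0.43 SE, adjusted p = 0.00321), and E2f1 knockout livers were at 0.49 (adjusted p = 0.465). The difference between the knockout groups was 1.93 (adjusted p = 0.0442). It was lost in 15 of 22 alternatives, 10 of them leaving out 1 liver, with adjusted p up to 0.138 and 0.0864 with the slide as a block. Tnfrsf14 is named here after its values were seen. Its dimmer probe, above background on 1 of 4 E2f1 knockout arrays, also differed between the knockout groups (1.50, adjusted p = 0.0117, limma). That probe gave 0.89 against wild type in E2f2-labelled livers (adjusted p = 0.0358). The brighter probe gave 0.07 and 0.41, neither called (adjusted p = 0.969 and 0.386).

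Il13ra2, the IL-13 decoy receptor, read -1.41, -1.54, -0.98 and -1.99 in E2f2-labelled livers, above every other liver. Wild type livers read -3.37, -4.88, -3.01 and -2.99 and E2f1 knockout livers -3.52, -2.78, -3.03 and -2.95, with 3 of 4 arrays above background in each. It rose by 2.08 in E2f2-labelled livers (adjusted p = 0.00384, and 0.82 with normexp, still called) and was at 0.50 in E2f1 knockout (adjusted p = 0.4). Between the knockout groups the difference was 1.59 (adjusted p = 0.0671), and 0.00472 without wild type replicate 2. Il13ra1 and Il4ra, the chains of the signalling receptor, were at 0.45 and 0.11 in E2f2-labelled livers, neither called.

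Il15ra, which presents IL-15 to lymphocytes, read 4.25, 4.60, 3.80 and 3.95 in wild type livers. All knockout livers were above these, from 4.74 to 5.38 in E2f1 knockout livers and from 4.69 to 5.03 in the E2f2-labelled group. The rises were 0.94 (adjusted p = 0.00743) and 0.63 (adjusted p = 0.0374), and a second probe gave 1.10 and 0.70 (adjusted p = 0.0032 and 0.0218). The E2f2-labelled call of the brighter probe was lost in 14 of 22 alternatives, 7 of them leaving out 1 liver, with adjusted p up to 0.17, and was 0.38 with quantile normalization. Il12rb1, a chain of the IL-12 and IL-23 receptors, rose by 1.43 (adjusted p = 0.00986) and 1.58 (adjusted p = 0.006) by its brighter probe, while the second gave 0.29 (adjusted p = 0.577) and 0.56 (adjusted p = 0.226). The mean of the probes gave 0.86 in E2f1 knockout (adjusted p = 0.0147). Il17ra was at -0.18 and 0.11, not called.

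**Figure D3:**
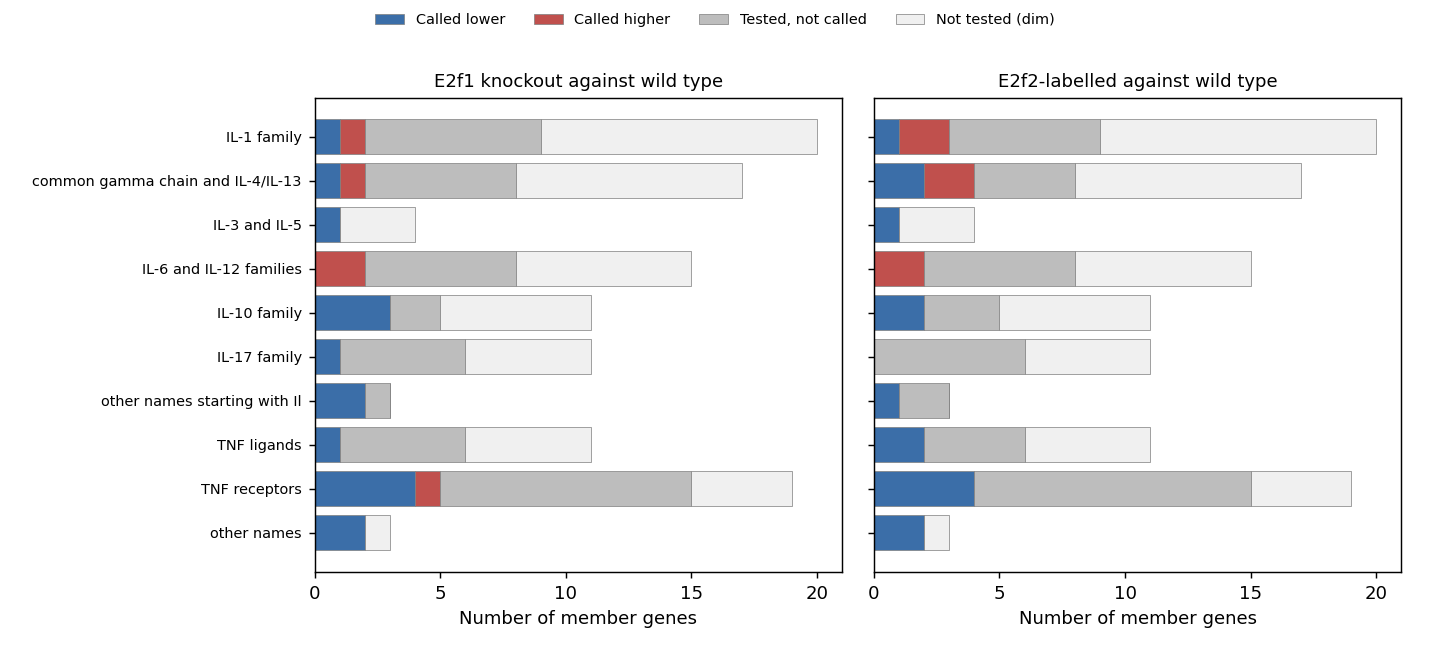
Number of member genes (x axis) of each family (y axis) called lower, called higher, tested without a call, or too dim to test, for each comparison with wild type. The TNF receptors hold 4 lower calls in each comparison, and the IL-6 and IL-12 families 2 higher calls in each.

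By role, 16 of the 50 ligands and antagonists could be tested against 43 of the 59 receptors. These counts stand beside 7.43% and 7.59% of all tested genes called lower and 13.2% and 14.4% called higher. Of the tested ligands 4 were called lower and 0 higher in each comparison. These lower calls include Tnf in each comparison and Tnfsf13b in E2f2-labelled livers. Both genes passed the filter on dim probes only through the wild type livers, and these calls were lost with normexp. The same holds for Il21r among the receptors called lower. Of the tested receptors, 10 were called lower and 5 higher in E2f1 knockout, and 9 lower and 6 higher in E2f2-labelled livers. The higher calls of the receptors (11.6% and 14.0%) are near the share of all genes. Counts by family are small: of 5 tested IL-10 family genes 3 and 2 were lower, and of 15 tested TNF receptors 4 and 4.

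The wild type livers differed among themselves in 2 ways. Of the 19 members called lower in at least 1 comparison, 11 had their lowest wild type level in replicate 3, among them Tnfrsf12a, Tnfrsf18, Tnfrsf23, Tnfsf12Tnfsf13, Tnfsf13os and Il33. Another 7 had their highest wild type level in replicate 3, among them Tnf, Il21r, Il10ra, Il16 and Il2rg. Replicate 1 was the lowest wild type liver for these last 5. The median standard deviation over tested members was 0.49 in wild type, 0.33 in E2f1 knockout livers and 0.40 in the E2f2-labelled group. Without wild type replicate 3, 14 members were called lower in E2f1 knockout livers and 17 in the E2f2-labelled group, and 5 and 6 higher.

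**Figure D4:**
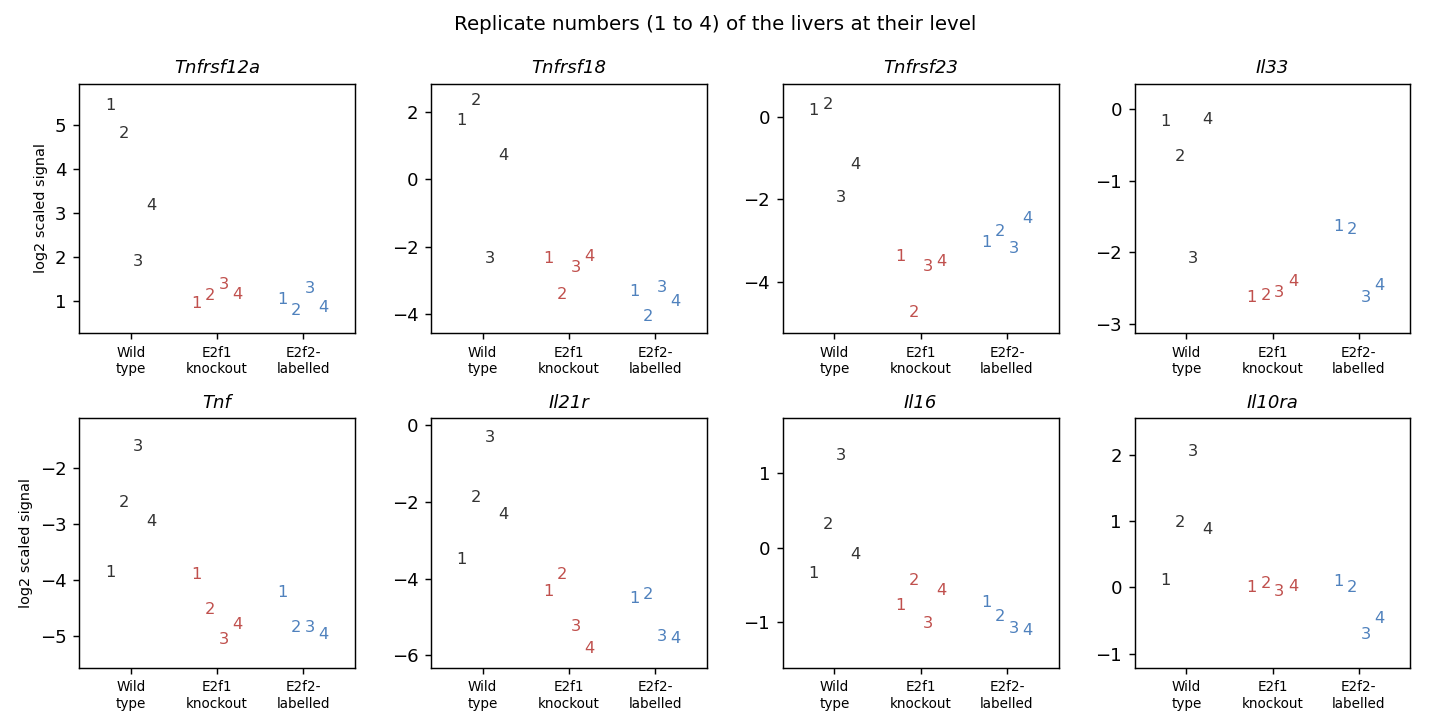
Level (log2 scaled signal, y axis) of 8 members in each liver, drawn as its replicate number, by group (x axis). In the upper row wild type replicate 3 is the lowest wild type liver, and in the lower row it is the highest.

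Markers of cell types moved beside these members, and their part in the results was not tested. Counts on these lists stand beside the same shares of all tested genes, 7.43% and 7.59% lower and 13.2% and 14.4% higher, and 1 call on a short list is near them. Of 14 macrophage markers, all tested, 3 were lower in E2f1 knockout (Itgax, Gpnmb and Trem2), 5 in E2f2-labelled livers (these with Cd68 and Ccr2) and 1, the Kupffer cell gene Clec4f, was higher in both. Gpnmb was above background on 0 of 4 arrays in each knockout group. The summed level of the list ran from 6.79 (replicate 1) to 8.54 (replicate 3) in wild type, 7.75 to 9.00 in E2f1 knockout livers and 7.31 to 9.13 in the E2f2-labelled group, so the ranges overlapped. Of 8 neutrophil markers 4 and 2 were lower, with sums of 6.01 to 7.61, 3.35 to 6.26 and 4.12 to 6.89. Of 7 tested T and NK markers 3 were lower in E2f2-labelled livers, and Klrb1c and Ncr1 were above background on no array. Summed over the 10 markers on the array, the list gave 5.08 to 6.13, 4.71 to 5.54 and 4.67 to 5.49.

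Of 6 tested stellate cell markers 2 were lower in each comparison, and the sums over the 7 on the array were 2.91 to 3.39, 2.25 to 2.93 and 1.71 to 2.28. Of 5 bile duct markers 3 were tested, and Spp1 was lower in both (-2.30 and -2.40, adjusted p = 0.0418 and 0.0344). The sum over the 5 was 1.33 in wild type replicate 3 and 3.17 to 5.26 in the other wild type livers, against 1.14 to 2.38 and 1.21 to 1.96 in the knockout groups. It was nearly all Spp1, which is also expressed by other cells and read 4.43, 5.23, 1.04 and 3.02 in wild type livers. Krt19 was at 0.89 and 0.41, not called, and Epcam was above background on no array. Of 6 B and plasma cell markers 1 was higher in E2f1 knockout, and of 6 endothelial markers 1 and 2 were lower, with overlapping sums. Of 2 tested adipocyte markers Cidec was lower in E2f2-labelled livers, and Adipoq was well above background on 1 array in all, that of E2f1 knockout replicate 1. The sum over the 6 on the array was 8.70 in that liver, against 8.79 to 9.61 in the rest of its group. A sum follows its brightest markers, and Adipoq, Plin1 and Retn were far below it even there, so it could not show their rise. The mean log2 level of the 6 did set that liver apart. It was 1.72, against -1.81 to -1.46 in the rest of its group and -2.54 to -1.13 in the other groups.

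Genes of the pathways downstream were read from lists, whose counts stand beside 7.43% and 7.59% of all tested genes called lower and 13.2% and 14.4% higher. Of 23 tested TNF receptor adaptor and NF-kB genes, 6 were lower and 1 higher in E2f1 knockout, and 4 and 1 in E2f2-labelled livers. Traf1, an adaptor gene, was at -1.31 (adjusted p = 0.0186) and -1.93 (adjusted p = 0.00321), and Nfkb2, the precursor of the non-canonical subunit, at -1.05 (adjusted p = 0.00476) and -0.87 (adjusted p = 0.00995). Chuk, a kinase of the NF-kB pathway, rose by 0.60 and 0.84 (adjusted p = 0.0353 and 0.00751). Of 5 tested cytokine processing genes 3 and 2 were lower. They were the inflammasome genes Pycard (-1.29 and -1.51, adjusted p = 0.0144 and 0.0069) and Casp1 (-1.10 and -1.19, adjusted p = 0.0165 and 0.0108), and in E2f1 knockout Casp4 (-1.08, adjusted p = 0.0404).

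In 2 further lists the counts, of 1 or 2 genes, are near those shares. Of 11 IL-1 and Toll-like receptor adaptors 1 was lower and 1 higher in E2f1 knockout, and 2 and 1 in E2f2-labelled livers. Tab2 was lower in both (-0.80 and -0.69, adjusted p = 0.00504 and 0.00889), Irak4 in E2f2-labelled livers (-0.88, adjusted p = 0.0233), and the negative regulator Tollip was higher (0.42 and 0.37, adjusted p = 0.026 and 0.042). Of 17 JAK-STAT genes 1 was lower in E2f1 knockout (the feedback inhibitor Socs1, -1.36, adjusted p = 0.046) and 2 in E2f2-labelled livers. These were Stat4, at least 1.83-fold lower by the same approximate bound as for Tnf, and the phosphatase gene Ptpn6 (-0.99, adjusted p = 0.0302). The adjusted p of Stat4, 0.00353 (limma), belongs to the signals as measured and not to this bound.

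Kin of these families under other names were read from a further list. Of 15 tested, 4 were lower and 1 higher in E2f1 knockout, and 3 and 2 in E2f2-labelled livers. These counts stand beside 7.43% and 7.59% of all tested genes called lower and 13.2% and 14.4% higher. The higher calls (6.67% and 13.3%) do not exceed the share of all genes. Ltb, which encodes the TNF family ligand lymphotoxin beta, read 4.43, 3.76, 1.67 and 2.35 in wild type livers and between -0.34 and 1.12 in the knockouts. Its falls were -2.06 (adjusted p = 0.0118) and -2.92 (adjusted p = 0.00229). Its receptor gene Ltbr was higher in E2f2-labelled livers (0.57, adjusted p = 0.0187), and Lifr, a receptor of the IL-6 family, was higher in both (1.36 and 1.64, adjusted p = 0.00831 and 0.00344).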

How the data were processed

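Liver RNA of 12 mice (50 ng each) was labelled in one colour and hybridised to Agilent arrays. The deposited scanner files hold the intensity of each spot after background subtraction, as the scanner software (Agilent Feature Extraction, version 10.7.3.1) gave it, per the file headers and the submitters' processing notes. The deposited series matrix holds log2 values of the same arrays and served as an alternative. Probe positions are mm9, per the file headers.

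From the files, log2 of the processed signal minus the 75th percentile of each array was taken, without control and outlier spots. Testing needed a probe well above background in 3 or more of the 4 livers of some group, and the brightest tested probe stood for its gene. limma 3.58.1 in R 4.3.3 was fitted to all 12 arrays (lmFit, eBayes), with Benjamini-Hochberg adjustment over 20572 genes at 0.05. The fit was tested on simulated data. Alternatives were normexp, quantile and median scaling, the series matrix, other filters, the mean of probes, a slide block, 2 groups alone, array weights and leaving out each array.

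Named genes were members called with a log2 difference of at least 1 and a list of members named whatever their values; exceptions are marked. The members, lists and tests were chosen with earlier results of these data known. One matching gene is not reported here. Promoters are from RefSeq (GRCm38.p6).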

Additional observations from a re-analysis of the deposited data

Results flagged for a closer look

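Over the tested members and the 3 groups, 189 groups of 4 livers were searched for a liver far from the other 3, and 7 were found. Chance alone gives about 1 in 20. Il15ra read 5.03 in E2f2-labelled replicate 2, against 4.69 to 4.72 in the rest of its group. Il1r1 read 2.40 in E2f1 knockout replicate 3, against 1.39 to 1.55. Tnfrsf1b read -1.19 in E2f1 knockout replicate 4, against -0.55 to -0.48. Il17d, Il27ra and Il7r are named here after their values were seen. Il17d read 1.33 in wild type replicate 4, against 0.66 to 0.71. Il27ra read -3.45 in E2f1 knockout replicate 3, against -2.80 to -2.70. Il7r read -1.96 in wild type replicate 3, against -3.35 to -3.31, and -4.86 in E2f2-labelled replicate 4, against -3.40 to -3.10.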

How the results depend on the processing

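Over up to 22 alternatives, 12 of them leaving out 1 liver, the named genes gave 2448 values on the same side of the threshold, 133 that lost it, 26 that gained it and 0 that reversed. The 2448 include results that were not called in the main fit and stayed so. Only the 21 calls in E2f1 knockout, 21 in E2f2-labelled livers and 1 between the knockout groups could be lost. The members called lower in E2f1 knockout fell to 10 with no filter on dim probes and were 9 to 16 when leaving out 1 liver. The median difference of the members was -0.0941 with normexp and -0.07 with no filter, and -0.12 in E2f2-labelled livers when only members above background on all 12 arrays were tested. The members called lower in E2f2-labelled livers were 8 when only the 41 members above background on all 12 arrays were tested. In that setting 11 members were called lower in E2f1 knockout. Over all 16651 genes it called 1192 lower in each of these comparisons with wild type. Between the knockout groups, the count called higher was 0 with quantile normalization, the series matrix, no filter and the replicate block, 2 with array weights, and 0 to 1 when leaving out 1 liver. The count called lower was 1 with the replicate block, 1 with the 2 groups alone, 2 with array weights, and 0 to 1 when leaving out 1 liver. That median was -0.0269 with no filter. The causes were not tested. Arrays with the same replicate number shared a slide. Of 12 pairs of same-numbered arrays 10 correlated above 0.1 (0.04 to 0.42), and 11 of 12 arrays correlated best with their own number. The main fit did not use the slide as a block, so its p-values do not account for this pairing. With the replicate block the members called were 5 higher and 17 lower in E2f1 knockout and 7 higher and 17 lower in E2f2-labelled livers. Over all 20572 genes the block gave 3683 higher and 1786 lower in E2f1 knockout, and 4411 and 1817 in E2f2-labelled livers. Quantile normalization moved the median of all genes from 0.13 to 0.03 and from 0.18 to 0.07, and the calls over all genes from 2714 higher and 1528 lower to 1923 and 1892 in E2f1 knockout, and from 2962 and 1562 to 1890 and 1932 in E2f2-labelled livers. Signal over background limits the dim members.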
